A study of Schizosaccharomyces pombe with 4 samples.

Results

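The 500 windows of 1500 bp with the lowest H3K9me3 ratio were taken from 7667 windows on the arms of the 3 nuclear chromosomes of fission yeast, *Schizosaccharomyces pombe*, and so made up 6.52% of the arm windows. A window entered if it held at least 3 probes without the suffix f or m. The outer 100 kb of chromosomes 1 and 2, the outer 60 kb of chromosome 3 and 4 inner stretches were left out: chromosome 1 from 3735000 to 3805000, chromosome 2 from 1585000 to 1665000 and from 2100000 to 2170000, and chromosome 3 from 1055000 to 1160000. These inner stretches are called here the centromeres and, for 2100000 to 2170000 on chromosome 2, the mating-type region. The ratio of a window was the median over its probes of log2 immunoprecipitated over input signal, with the array's own median set to 0. The 500 windows were chosen by the mean of this ratio over the 4 arrays. Their low ratio is therefore the criterion that chose them and not a finding, and the levels are given as a description.

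Chromatin of logarithmically growing cells of 4 strains, IRD1, IRD2, IRD3 and WT, was precipitated with an antibody to histone H3 trimethylated at lysine 9 and measured on an array of 60-base probes, 1 array per strain. The cultures were grown at 32 °C and fixed with 3% paraformaldehyde, and the chromatin was sheared to fragments of 400 to 600 bp. Precipitated DNA carried the red dye Cy5 and whole-cell extract DNA, the input, the green dye Cy3, so a positive ratio means enrichment by the antibody. The labels give no alleles for the IRD strains and do not spell out the names IRD or REIID, a tag that all 4 titles share, WT included. In the labels of IRD1 and IRD3 the entries for genotype and antibody stand exchanged, so each strain was taken from the title. All 4 arrays were on 1 slide and were read in 1 scan. With 1 array per strain there was no replicate: no difference between strains could be set against the spread between replicates, no test was made, and the number of arrays limits the precision of each value.

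H3K9me3 marks silent chromatin. The fission yeast methyltransferase Clr4 places it over the centromeric repeats, the silent mating-type region and the chromosome ends, where it is bound by HP1-type proteins such as Swi6. Most of the arms, which hold the bulk of the genes, carry little of it. Mitochondrial DNA is not wrapped around histones, and its probes give the ratio of DNA that offers the antibody no target.

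The 500 windows held 2456 probes, and 463 of them had 5 probes, 30 had 4 and 7 had 3. Together they covered 750 kb. The mean ratio over the 4 arrays ran from -1.86 to -0.98, with a median of -1.19. Just inside the threshold lay chromosome 1 from 2971500 to 2973000 at -0.9817, chromosome 3 from 709500 to 711000 at -0.9813 and chromosome 2 from 1965000 to 1966500 at -0.9795. Just outside lay chromosome 2 from 3715500 to 3717000 at -0.9786, chromosome 1 from 5227500 to 5229000 at -0.9776 and chromosome 3 from 853500 to 855000 at -0.9763. The set is thus the lower end of a continuous distribution and not a separate class.

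On each array the median of the 500 windows lay below the level of the arms and above the median of the mitochondrial probes. In IRD1 their median log2 ratio was -1.05, with quartiles of -1.20 and -0.91 and a range of -1.85 to -0.47. In IRD2 the median was -1.36, with quartiles of -1.54 and -1.21 and a range of -2.03 to -0.76. In IRD3 the median was -1.18, with quartiles of -1.33 and -1.05 and a range of -2.03 to -0.59. In WT the median was -1.23, with quartiles of -1.42 and -1.08 and a range of -1.99 to -0.45. As linear ratios these medians were 2.07 times below the array median in IRD1, 2.57 times in IRD2, 2.26 times in IRD3 and 2.34 times in WT. The other 7167 arm windows had medians of 0.04 in IRD1, 0.07 in IRD2, 0.05 in IRD3 and 0.07 in WT.

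**Figure D1:**
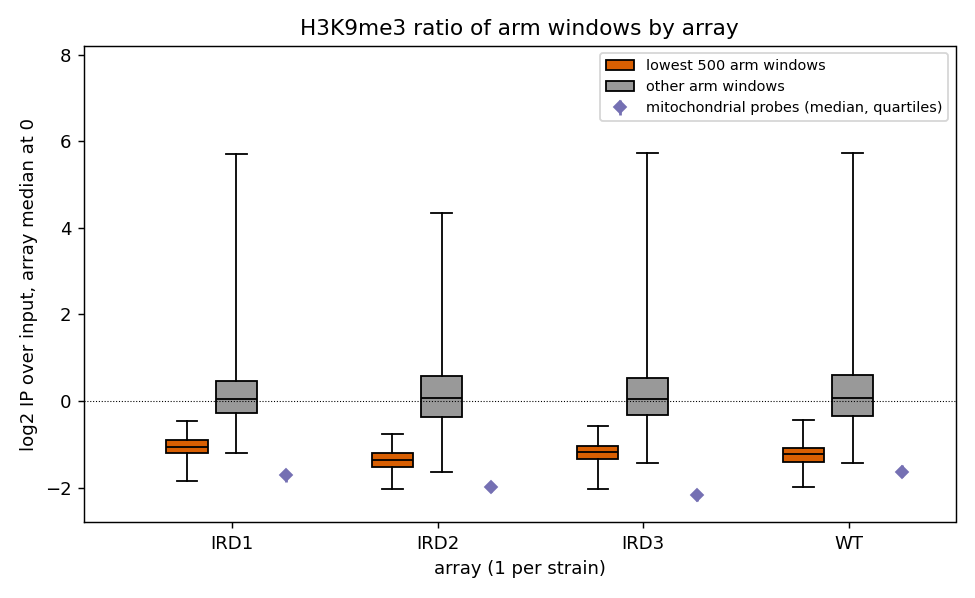
Log2 ratio of immunoprecipitated over input signal on each array (array median at 0) for the 500 lowest arm windows (orange) and the other 7167 arm windows (grey); boxes show the median and quartiles, whiskers the lowest and highest window, and diamonds the median and quartiles of 61 mitochondrial probes. The orange medians lie at -1.05 in IRD1, -1.36 in IRD2, -1.18 in IRD3 and -1.23 in WT, each above the mitochondrial median of the same array.

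The 61 mitochondrial probes had a median of -1.72 in IRD1, -1.98 in IRD2, -2.18 in IRD3 and -1.64 in WT. The medians of the 500 windows stood above these by 0.66 in IRD1, 0.62 in IRD2, 1.001 in IRD3 and 0.41 in WT. Windows at or below the mitochondrial median numbered 2 of 500 in IRD1 and 2 in IRD2, each 0.0261% of all arm windows, and none in IRD3. In WT they numbered 33, or 0.43% of all arm windows. No arm window outside the 500 reached the mitochondrial median on any array. The gap between the medians was thus widest in IRD3, whose mitochondrial probes were the lowest, and narrowest in WT, whose mitochondrial probes were the highest. The single values overlapped. At or below the highest mitochondrial probe of the array were 471 of the 500 windows in IRD1, 334 in IRD2, 61 in IRD3 and 398 in WT. At or below the upper quartile of the mitochondrial probes were 5 in IRD1, 11 in IRD2, 0 in IRD3 and 78 in WT. The lowest windows outside the 500 were at -1.21 in IRD1, -1.65 in IRD2, -1.43 in IRD3 and -1.44 in WT. No window outside the 500 thus reached the upper quartile on any array. The highest mitochondrial probe was at -0.73 in IRD1, -1.25 in IRD2, -1.45 in IRD3 and -1.04 in WT. In IRD1, IRD2 and WT windows outside the 500 therefore lay below it as well, and these were not counted. Since mitochondrial DNA was far more abundant than nuclear DNA in the input, with a median input signal 4.22 to 4.39 log2 units above the array median, the comparison is between probes of very different brightness.

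Windows at least 2-fold below the array median numbered 300 of 500 in IRD1, 478 in IRD2, 411 in IRD3 and 420 in WT. Over all arm windows this threshold was passed by 4.08% in IRD1, 9.52% in IRD2, 6.38% in IRD3 and 6.72% in WT. On all 4 arrays it was passed by 230 windows, and all of these were among the 500. The mean of such a window lies below the -0.98 at which the choice ended, so their membership follows from the choice itself. The order of the arrays follows the spread of the whole arms: the median absolute deviation over all arm windows was 0.396 in IRD1, 0.508 in IRD2, 0.451 in IRD3 and 0.486 in WT. When each array was brought to the same spread, the medians of the 500 windows were -1.22 in IRD1, -1.23 in IRD2, -1.20 in IRD3 and -1.16 in WT.

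The arrays placed largely the same windows at the bottom. Of the 500, 265 were among the lowest 500 of all 4 arrays, 137 of 3 arrays, 82 of 2 and 16 of 1. Because the ranking used the same arrays, the choice was repeated on 3 arrays and the windows were read on the array left out. On the array left out, the 500 windows so chosen had a median of -1.03 in IRD1, -1.34 in IRD2, -1.17 in IRD3 and -1.22 in WT. All 500 were below 0 in each case, where all arm windows had medians between -0.003 and 0.011. Among the lowest 500 of the array left out were 377 in IRD1, 378 in IRD2, 390 in IRD3 and 388 in WT. The lowest 500 of an array are 6.52% of all arm windows. The highest value read in this way was -0.14 in IRD1, -0.41 in IRD2, -0.59 in IRD3 and -0.37 in WT. The windows so chosen were thus low on the array left out as well. The arrays were alike in probes, slide, scan and antibody, and over all arm windows they correlated with Pearson's r from 0.921 to 0.959. A low reading on the array left out was therefore likely beforehand. It describes repeatability and is no test.

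Over all 7667 arm windows the ratios of any 2 arrays correlated with Pearson's r between 0.921 and 0.959. Within the 500, r was between 0.387 and 0.507. The 500 were cut off by their mean over the same arrays, and this narrowed range by itself lowers r. The lower r is therefore no measure of how well the arrays agree on the low windows. These coefficients describe windows that share probes and are not independent of each other. The SD over the 4 arrays had a median of 0.186 in the 500 windows and 0.147 in the other arm windows.

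The 10 lowest windows lay between 1.64 and 1.86 log2 units below the array median and were spread over all 3 chromosomes, with 7 on chromosome 1, 2 on chromosome 2 and 1 on chromosome 3. The lowest, on chromosome 2 from 841500 to 843000, had -1.66 in IRD1, -1.76 in IRD2, -2.03 in IRD3 and -1.99 in WT. Each of its 5 probes was at -0.64 or lower on every array, and the probe at 842700 had -1.998 in IRD1, -2.17 in IRD2, -2.79 in IRD3 and -1.72 in WT. The next, on chromosome 1 from 1953000 to 1954500, had -1.85 in IRD1, -2.03 in IRD2, -1.47 in IRD3 and -1.77 in WT, and 4 of its 5 spots in IRD3 were marked as outliers by the scanner software. On chromosome 1 from 4452000 to 4453500 the ratio was -1.39 in IRD1, -1.87 in IRD2, -1.88 in IRD3 and -1.88 in WT. On chromosome 1 from 1078500 to 1080000 it was -1.43 in IRD1, -1.96 in IRD2, -1.74 in IRD3 and -1.73 in WT. IRD1 was the highest of the 4 arrays in 9 of the 10, and the other strains changed order from window to window. The other 6 were on chromosome 1 from 3004500, 1599000, 4356000 and 4717500, on chromosome 3 from 1689000 and on chromosome 2 from 3010500, with means over the arrays of -1.70, -1.67, -1.67, -1.64, -1.69 and -1.66 in that order.

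**Figure D2:**
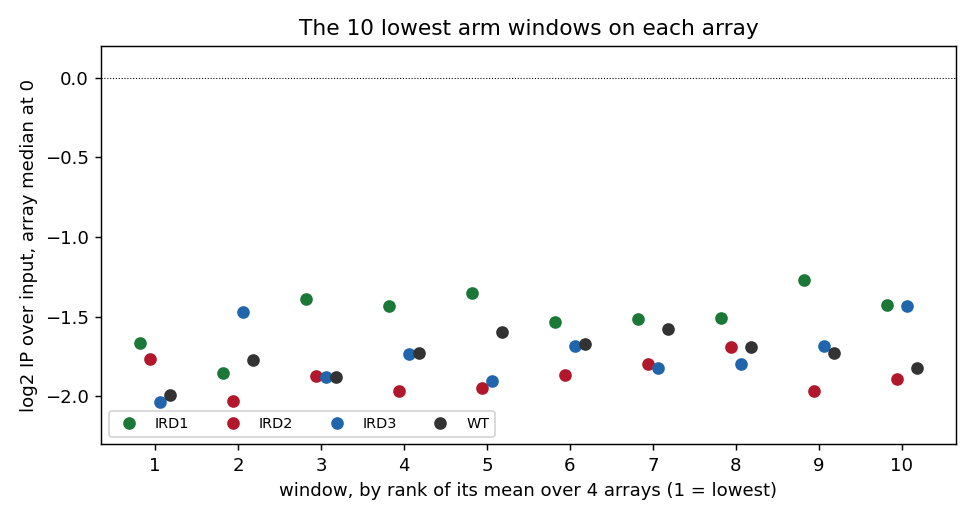
Log2 ratio of the 10 lowest arm windows on each array (array median at 0), in the order of their mean over the 4 arrays; each point is 1 window on 1 array (IRD1 green, IRD2 red, IRD3 blue, WT black). All 40 points lie between -2.03 and -1.27, and the IRD1 point is the highest in 9 of the 10 windows.

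Every probe of the window was below 0 on all 4 arrays in 392 of the 500 windows (78.4%), against 747 of the other 7167 windows (10.4%). The medians of these same probes chose the windows, so most probes of a chosen window had to be low and the contrast is a description only. In the other 108 windows at least 1 probe was at or above 0 on some array. Among these, 18 windows, singled out after their values were seen, held 19 probes that reached at least 1 on some array. The probe at 2664300 on chromosome 1 had 4.21 in IRD1, 4.15 in IRD2, 4.43 in IRD3 and 4.74 in WT, within a window whose mean was -1.33. The probe at 2808600 on chromosome 2 had 2.42 in IRD1, 1.73 in IRD2, 2.11 in IRD3 and 2.85 in WT, within a window whose mean was -1.56. The probe at 1310700 on chromosome 1 had 1.49 in IRD1, 1.91 in IRD2, 1.43 in IRD3 and 1.64 in WT. These 3 probes were high on all 4 arrays, and the median over 5 probes kept their windows among the lowest. Of the other 16 probes, 8 reached 1 on 1 array only, among them 161700 on chromosome 2, at 3.90 in IRD2, against -0.69 in IRD1, -0.98 in IRD3 and -0.92 in WT. The input of that spot was 3.55 in IRD2 as well, against 0.01 in IRD1, 0.08 in IRD3 and 0.11 in WT.

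The low ratio came mainly from the precipitated channel. With each channel's median over the genomic probes at 0, the median precipitated signal of the 500 windows was -1.52 in IRD1, -1.80 in IRD2, -1.63 in IRD3 and -1.74 in WT. Their median input signal was -0.36 in IRD1, -0.33 in IRD2, -0.29 in IRD3 and -0.35 in WT. The other arm windows had medians between 0.03 and 0.05 in the precipitated channel and between 0.00 and 0.01 in the input. The precipitated signal was below 0 on all 4 arrays in 491 of the 500 windows. This count was not made over the other arm windows, whose mean precipitated signal over the arrays had quartiles of -0.47 and 0.55. The precipitated signal is a term of the ratio that chose the windows, so its level carries the same choice; the input enters the ratio in the opposite sense, and a low input by itself raises the ratio.

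Low input was nevertheless common among the 500 windows. When all arm windows were divided into 10 equal groups by their mean input signal, the 500 windows made up 16.4% of the group with the lowest input, 10.3% of the next and 8.62% of group 3. Their share was lowest, at 2.61%, in group 7 and was 4.43% in the group with the highest input, against 6.52% of the arms as a whole. An input above 0 was found in 129 of the 500 windows (25.8%), against 50.4% of the other windows. In those 129 windows the median input was 0.36 and the median precipitated signal -0.88. Over all arm windows the ratio and the input had a Pearson's r of 0.0746 (n = 7667, all read on the same 4 arrays). A loess correction within each array removes the trend of the ratio with the mean brightness of both channels. With it, the lowest 500 windows held 14 windows of the lowest input group in place of 126. That mean brightness includes the precipitated signal, which itself had a Pearson's r of 0.77 with the ratio over all arm windows. The part of the input in this fall was not tested.

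**Figure D3:**
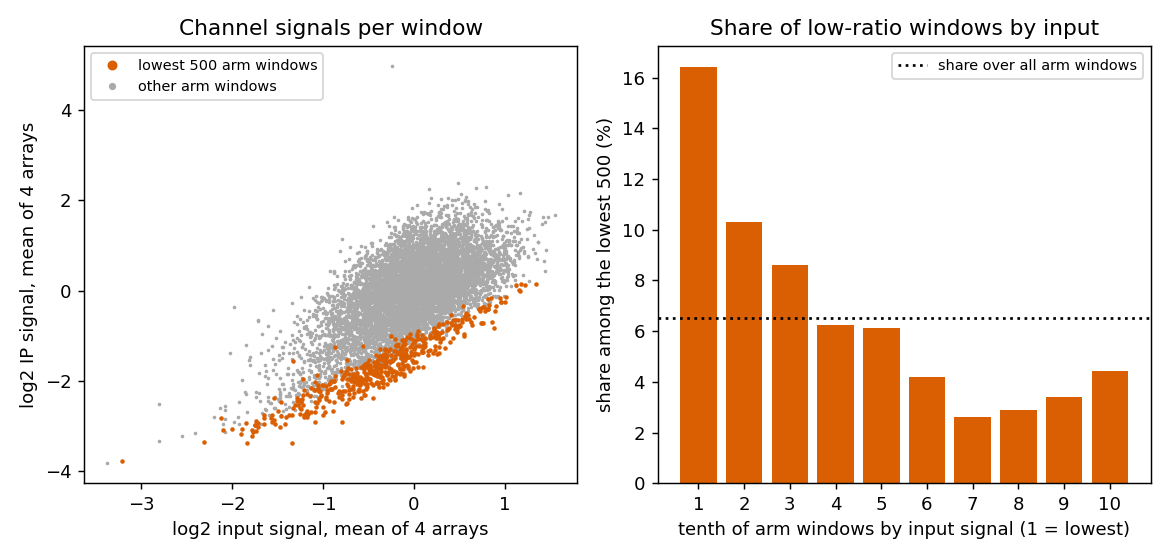
Left, mean log2 precipitated signal against mean log2 input signal over the 4 arrays (each channel's array median at 0), with the 500 lowest arm windows in orange and the other arm windows in grey; right, the percentage of each of 10 equal groups of arm windows by input (1 = lowest input) that was among the 500. The orange points follow the lower edge of the cloud at every input, and the share is 16.4% in the group with the lowest input and 2.61% in group 7.

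The spots of the 500 windows were dim. The median processed signal of the precipitated channel was 440 in IRD1, 414 in IRD2, 410 in IRD3 and 444 in WT, against 1270, 1468, 1280 and 1505 in the other arm windows of the same arrays. Of the 2456 spots, the precipitated signal was not well above background in 23 in IRD1 (0.936%), 17 in IRD2 (0.692%), 19 in IRD3 (0.774%) and 14 in WT (0.570%), against 0.101%, 0.0619%, 0.118% and 0.0872% of the spots of the other arm windows on the same arrays. The input was well above background in all of the 2456. No spot was saturated. Outlier marks of the scanner software were more frequent in the 500 windows, at 20.6% of spots in IRD1, 2.28% in IRD2, 18.0% in IRD3 and 3.42% in WT, against 6.51%, 0.394%, 3.30% and 0.968% in the other windows. No spot was marked on any array in 66 of the 500 windows (13.2%), against 4609 of the other 7167 (64.3%). These 66 had medians of -1.01 in IRD1, -1.30 in IRD2, -1.11 in IRD3 and -1.06 in WT, and without all marked spots 468 of the 500 windows were chosen again. The probes were scattered over the slide, with neighbouring probes a median of 159 spots apart, and the 500 windows supplied between 6.14% and 6.82% of the spots in each of 4 equal bands of its rows or columns.

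The 500 windows were found on all 3 chromosomes in near proportion, with 237 of 3484 arm windows on chromosome 1 (6.80%), 164 of 2744 on chromosome 2 (5.98%) and 99 of 1439 on chromosome 3 (6.88%). Within chromosomes they were uneven. Over 25 segments of 500 kb the share ran from 1.40% on chromosome 2 from 2000000 to 2500000, with 4 of 286 windows, to 13.0% on chromosome 2 from 0 to 500000, with 34 of 262 windows, around a median of 6.83%. These segments, and the stretches named in the following lines, were set after the values were seen.

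The densest stretch was the left arm of chromosome 2 next to the left-out end. From 100 to 150 kb, 15 of 29 arm windows were among the 500 (51.7%), the highest share of 231 stretches of 50 kb, followed by 30.3% on chromosome 1 from 3850000 to 3900000. The 29 windows had a median of -0.71 in IRD1, -1.08 in IRD2, -0.93 in IRD3 and -1.12 in WT, and 26 of them had a mean below 0. Over all arm windows the median of this mean was -0.004. Their median input was -0.49 and their median precipitated signal -1.53. The low ratio reached into the left-out end, where no window could be chosen: it was -0.83 from 50 to 75 kb and -0.98 from 75 to 100 kb. It also ran on to 175 kb, with a median of -1.15 from 100 to 125 kb, -0.88 from 125 to 150 kb and -0.73 from 150 to 175 kb, and was 0.11 from 175 to 200 kb. In all, 22 of 46 arm windows from 100 to 175 kb were among the 500 (47.8%), against 478 of 7621 elsewhere (6.27%).

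Beside the other chromosome ends the shares were lower. Within 50 kb of the left-out ends, the share was 4 of 33 windows on the left and 3 of 33 on the right of chromosome 1, 0 of 33 on the right of chromosome 2, and 3 of 34 on the left and 2 of 33 on the right of chromosome 3. The share beside all 6 ends together was 27 of 195 (13.8%), and without the left end of chromosome 2 it was 12 of 166 (7.23%). With the loess correction the count beside the 6 ends was 8. The median ratio was negative beside 5 of the 6 ends, at -0.47 on the left and -0.35 on the right of chromosome 1, -0.99 on the left of chromosome 2, and -0.10 on the left and -0.34 on the right of chromosome 3. On the right of chromosome 2 it was 0.32.

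Low windows were scarce within 50 kb of the centromeres and the mating-type region, but not at 100 kb beside the centromere of chromosome 1. Within 50 kb of the 4 inner stretches, 2 of 267 windows were among the 500 (0.749%), both beside the centromere of chromosome 2, and these 267 windows had a median ratio of 0.25 and a median input of 0.13. Within 100 kb the count was 18 of 532 (3.38%), of which 12 were beside the centromere of chromosome 1, where they made up 12 of 134 windows (8.96%), above the 6.52% of the arms. The count within 50 kb was 5 with normexp background correction, with loess or with windows moved by 750 bp, and 4 with means over probes. The longest stretches of arm windows with none of the 500 were on chromosome 2 from 1975500 to 2302500, with 171 arm windows around the mating-type region, and on chromosome 3 from 988500 to 1338000, with 162 arm windows around the centromere. Their median ratios were 0.29 and 0.28.

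Low windows occurred next to each other. The arm windows on either side of each of the 500 gave 970 neighbours, in which the same window can be counted more than once. Of these 970, 324 (33.4%) were themselves among the 500. Counted in the same way, the share was 19.6% at 3 kb, 16.0% at 4.5 kb, 7.73% at 9 kb and 7.75% at 30 kb. Adjacent neighbours that were not among the 500 had a median of -0.29, and those 15 kb away had 0.03. Of the 970 adjacent neighbours, 2.16% were among the highest 500 of the arms, against 6.07% of the neighbours 30 kb away.

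The 500 windows formed 338 runs, of which 235 were single windows, 65 were pairs, 23 had 3 windows, 12 had 4, and 1 each had 5, 6 and 7. The longest run was on chromosome 2 from 3489000 to 3499500 and spanned 10.5 kb. Its mean was -1.14 in IRD1, -1.31 in IRD2, -1.24 in IRD3 and -1.31 in WT. A run of 6 windows lay on chromosome 1 from 4171500 to 4180500, with -1.03 in IRD1, -1.29 in IRD2, -1.10 in IRD3 and -1.21 in WT. A run of 5 lay on chromosome 2 from 3624000 to 3631500, with -1.19 in IRD1, -1.40 in IRD2, -1.08 in IRD3 and -1.08 in WT. Each run was low on all 4 arrays, by similar amounts.

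The dip around a low window was narrow. At the window centre the median probe ratio was -1.09 in IRD1, -1.41 in IRD2, -1.21 in IRD3 and -1.27 in WT. At 1.5 kb to the right it was -0.48 in IRD1, -0.69 in IRD2, -0.59 in IRD3 and -0.55 in WT, and at 6 kb to the right -0.18, -0.21, -0.18 and -0.19 on the same arrays. The input dipped over a shorter distance, to -0.38 in IRD1, -0.38 in IRD2, -0.40 in IRD3 and -0.41 in WT at 0.3 kb left of the centre. At 2.1 kb to the right the input was above the array median, at 0.10 in IRD1, 0.14 in IRD2, 0.15 in IRD3 and 0.13 in WT. The ratio thus stayed below 0 beyond the distance at which the input was back at the level of the arms. Where chosen windows lay side by side, however, these flanks were themselves chosen for a low ratio. Around isolated windows the mean over arrays had a median of -0.14 at 1.5 kb right, -0.03 at 1.8 kb and -0.33 at 3 kb. Around all chosen windows it was -0.59, -0.51 and -0.44 at these distances. Without a chosen neighbour the flank at 1.5 to 1.8 kb was thus shallow. Neighbours of isolated windows were by definition not chosen, which by itself raises that flank.

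**Figure D4:**
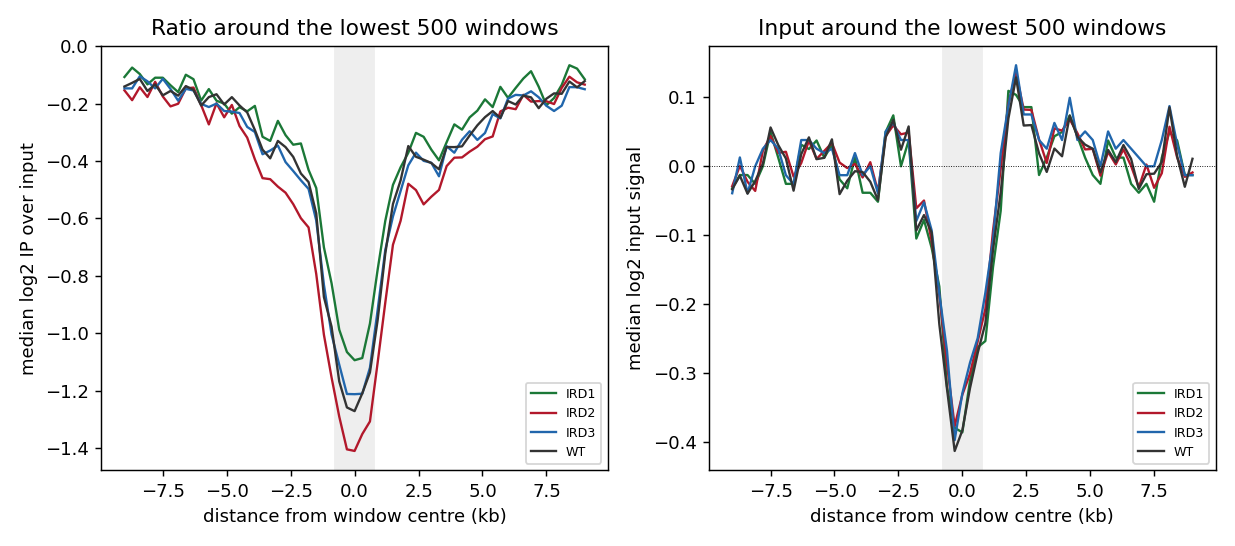
Median log2 ratio (left) and median log2 input signal (right) of probes against their distance from the centre of the 500 lowest windows in kb, 1 line per array (IRD1 green, IRD2 red, IRD3 blue, WT black; the grey band is the window itself). The ratio dips to between -1.41 and -1.09 at the centre and is about -0.2 at 6 kb, while the input dips to between -0.41 and -0.38 at 0.3 kb left of the centre and is above 0 at 2.1 kb on both sides.

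The 3 IRD strains were each compared with the same WT array, so the 3 differences share that array and are not independent. The IRD1 and IRD3 files also differ from the IRD2 and WT files. Their signals carry 3 significant digits, and 20.6% and 18.0% of the spots in the 500 windows were marked, against 2.28% in IRD2 and 3.42% in WT. The IRD1 and IRD3 differences from WT cannot be told apart from this pairing of files. Differences are IRD minus WT in log2 units, so a positive one means a less depleted window in the IRD strain. In IRD1 the 500 windows had a median difference of 0.19, with quartiles of 0.02 and 0.34, and 381 (76.2%) were higher than in WT, against 46.1% of all arm windows. In IRD2 the median was -0.13, with quartiles of -0.29 and 0.04, and 151 (30.2%) were higher, against 44.7% of all arm windows. In IRD3 the median was 0.03, with quartiles of -0.09 and 0.20, and 283 (56.6%) were higher, against 43.7% of all arm windows. The IRD1 median was 0.11 without marked spots, 0.10 with normexp background correction and 0.05 with loess, the windows being chosen anew each time. The IRD2 median was -0.23 with normexp and -0.21 with loess. The IRD3 median was -0.04 without marked spots and -0.01 with loess, so its sign was not stable. None of these medians reached the 0.422 that a window typically spanned from its lowest to its highest array. That span is a measure of single windows and itself includes the differences between strains.

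The direction of these differences rested on the scale of the arrays. With all arrays at equal spread, the medians for the same 500 windows were -0.05 for IRD1, -0.07 for IRD2 and -0.06 for IRD3. Taken relative to each array's mitochondrial median, they were 0.26 for IRD1, 0.21 for IRD2 and 0.57 for IRD3. The sign in IRD1 and IRD3 thus turned with the first scaling and the sign in IRD2 with the second. The WT value took part in choosing the windows, as did the IRD values, so none of these medians is independent of the choice.

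**Figure D5:**
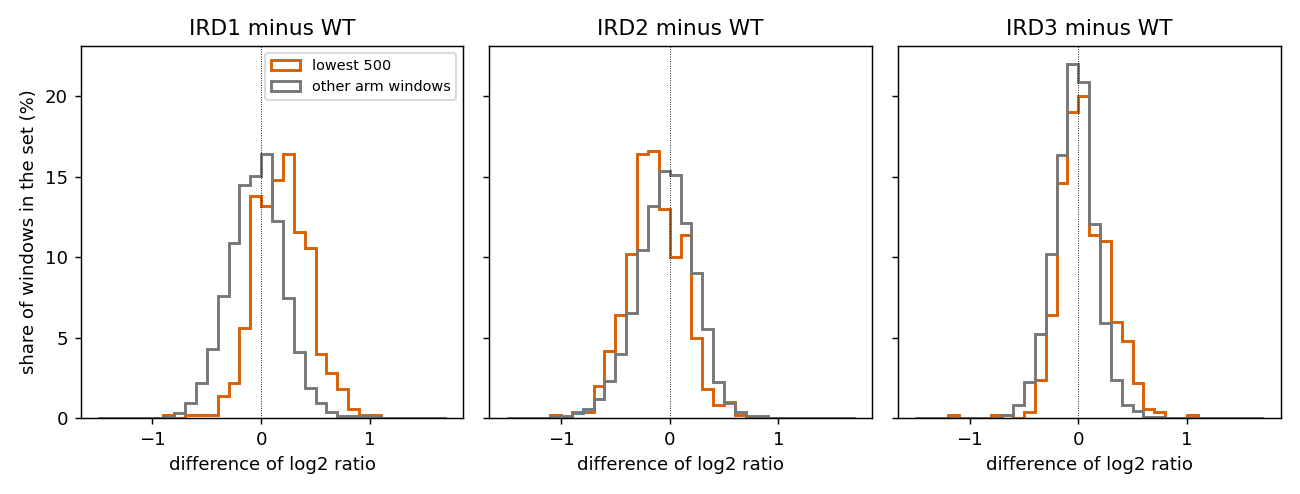
Distribution of the difference in log2 ratio between each IRD strain and WT (IRD minus WT, no rescaling of arrays), as the percentage of windows per step of the x axis, for the 500 lowest arm windows (orange) and the other arm windows (grey). The orange distribution has its median at 0.19 in the IRD1 panel, at -0.13 in the IRD2 panel and at 0.03 in the IRD3 panel; the grey median is within 0.04 of 0 in each.

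Large changes between strains were few. A difference of at least 1 log2 unit upward was found in 1 of the 500 windows in IRD1 (0.13% of all arm windows), 0 in IRD2 (0.0261%) and 1 in IRD3 (0.0783%). Downward it was found in 0 in IRD1 (0% of all arm windows), 1 in IRD2 (0.117%) and 1 in IRD3 (0.0261%). At 0.5 log2 units, a limit added after the data were seen, 48 were higher and 3 lower in IRD1, against 2.32% and 3.48% of all arm windows. In IRD2, 6 were higher and 36 lower, against 1.66% and 4.87%. In IRD3, 17 were higher and 3 lower, against 0.913% and 1.06%. The counts lean the way of the median difference of the same strain.

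The window that differed most from WT in the same direction in all 3 IRD strains was on chromosome 2 from 3813000 to 3814500. Its ratio was -1.29 in IRD1, -1.51 in IRD2, -1.59 in IRD3 and -0.45 in WT, so the differences were -0.85, -1.07 and -1.14. The input was alike, at -0.35 in IRD1, -0.38 in IRD2, -0.37 in IRD3 and -0.32 in WT, and the precipitated signal was -1.70 in IRD1, -2.05 in IRD2, -2.07 in IRD3 and -0.90 in WT. All 5 probes were lower in each IRD strain than in WT. At 3814200 the probe had -1.80 in IRD1, -1.75 in IRD2, -1.94 in IRD3 and -0.12 in WT, where that spot was marked as an outlier in WT. At 3813900, unmarked on every array, the probe had -1.51 in IRD1, -2.04 in IRD2, -1.83 in IRD3 and -0.76 in WT. The common term of the 3 differences is the single WT array. The window with the next largest fall in IRD1, on chromosome 2 from 3984000 to 3985500, had -1.30 in IRD1, -1.46 in IRD2, -1.04 in IRD3 and -0.64 in WT, but there the probes did not move together. At 3984600 the probe had -1.30 in IRD1, -1.46 in IRD2, -1.04 in IRD3 and -0.55 in WT, whereas at 3984000 it had -1.495 in IRD1, -1.78 in IRD2, -1.34 in IRD3 and -1.59 in WT. The precipitated signal of that window was -1.78 in IRD1, -2.08 in IRD2, -1.70 in IRD3 and -1.73 in WT.

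The largest rise in IRD1 and the largest in IRD3 lay in windows with marked spots in that strain. On chromosome 2 from 111000 to 112500 the ratio was -0.57 in IRD1, -1.32 in IRD2, -1.20 in IRD3 and -1.66 in WT, a difference of 1.09 in IRD1. There 3 of the 4 probes were marked in IRD1 and the input was between -1.89 and -1.70 on the 4 arrays. On chromosome 3 from 352500 to 354000 the ratio was -1.26 in IRD1, -1.49 in IRD2, -0.74 in IRD3 and -1.74 in WT, a difference of 1.001 in IRD3, and 3 of its 5 probes were marked in IRD3. On chromosome 3 from 1371000 to 1372500 IRD1 stood apart at -0.47, against -1.37 in IRD2, -1.59 in IRD3 and -1.22 in WT, and the probes at 1371300 and 1371600 were marked in IRD1. The part of marked spots and of low input in these differences was not tested. In IRD2 the largest rise was 0.67, on chromosome 3 from 1720500 to 1722000, where the ratio was -0.78 in IRD1, -0.78 in IRD2, -0.99 in IRD3 and -1.45 in WT. No spot of that window was marked in IRD2, and its input was -0.39 in IRD2, near the median of the 500 windows.

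At the other extreme, windows at nearly the same ratio on every array were present as well. On chromosome 1 from 4467000 to 4468500 the ratio was -1.12 in IRD1, -1.10 in IRD2, -1.12 in IRD3 and -1.09 in WT. On chromosome 1 from 1083000 to 1084500 it was -1.08 in IRD1, -1.06 in IRD2, -1.10 in IRD3 and -1.09 in WT. On chromosome 2 from 156000 to 157500, within the low stretch of the left arm, it was -1.18 in IRD1, -1.14 in IRD2, -1.16 in IRD3 and -1.17 in WT. The lowest and highest array were within 0.05 of each other in each of these 3 windows.

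Probes with the suffix f or m, whose meaning the labels do not give, had no part in choosing the windows and so supply a separate reading of them. In 31 of the 500 windows there were 36 such probes. Their median ratio was -0.65 in IRD1, -0.76 in IRD2, -0.82 in IRD3 and -0.88 in WT, and 31, 30, 30 and 32 of the 36 were below 0 on these arrays. The 265 such probes in other arm windows had a median of 0.08 in IRD1, 0.02 in IRD2, 0.18 in IRD3 and 0.15 in WT. Of these 265, 118 were below 0 in IRD1, 131 in IRD2, 113 in IRD3 and 123 in WT. Their level in the 500 windows was thus low on each array, but less so than the level of the probes that chose the windows. Their input differed from that of the other probes, with a median between 0.94 and 1.03 in the 500 windows. No window held more than 2 such probes, and 5 windows held 2. In 4 of these 5 windows both probes were below 0 on every array. In the remaining window, on chromosome 1 from 4914000 to 4915500, both were above 0 on every array: the probe at 4914000 had 1.07 in IRD1, 0.10 in IRD2, 1.14 in IRD3 and 1.304 in WT, against a mean of -1.06 for the probes that chose the window. On chromosome 3 from 2109000 to 2110500 the probe at 2109600 had -0.66 in IRD1, -0.74 in IRD2, -0.98 in IRD3 and -0.69 in WT, in a window at -1.36, -1.47, -1.46 and -1.65 on the same arrays. On chromosome 2 from 570000 to 571500 the probe at 570000 had -1.19 in IRD1, -1.29 in IRD2, -1.40 in IRD3 and -1.16 in WT, close to the window's mean of -1.24. On chromosome 3 from 2181000 to 2182500 the probe at 2182200 had -0.22 in IRD1, -0.39 in IRD2, -0.54 in IRD3 and -0.35 in WT.

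The genome build of the probe positions is not given in the sources used here, and the last probe of chromosome 3, at 2453700, lies beyond the end of that chromosome in the reference genome at hand. Positions are therefore those of the array's probe names, the end given for a window being the start of the next, and neither genes nor sequences were assigned to them.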

How the data were processed

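Schizosaccharomyces pombe chromatin of 4 strains was measured on 4 two-colour Agilent arrays, 1 per strain. Per the file headers, the authors used Agilent Feature Extraction 12.0.3.1 to read spot intensities, with background subtraction and dye normalization in the processed signal. In the IRD1 and IRD3 files the deposited processed signals carry 3 significant digits. The deposited value table holds the linear ratio of red over green signal, not centred. Each array has 41551 genomic probes of 60 bases at steps of 300 bp, and 1417 control spots were left out.

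From these, log2 of red over green processed signal was computed and centred on each array's median over genomic probes, with no loess or quantile step, and summarised per window as the median over at least 3 probes. Spots marked as outliers were kept, since the definition of the windows does not remove them. The members and lists were chosen with earlier results of these data known. The windows named are the 10 lowest, 3 on each side of the threshold, the 3 largest rises and falls per IRD strain, the 3 longest runs, the 3 largest and smallest ranges over arrays and the 3 with most probes of suffix f or m; not all are printed. Other windows and probes are marked as singled out later. Python 3.11.15 with numpy 2.4.6 and pandas 2.3.3 and, for the alternatives, R 4.3.3 with limma 3.58.1 (normexp offset 50, loess) were used. The calculation was tested on simulated data whose low windows were set far apart from the rest. That check covers the calculation only and not the choice of windows near the threshold of a continuous distribution. No statistical test was made, since each strain has 1 array. Alternatives covered marked spots, the value table, background correction, loess, window summary and grid, probe minimum, array spread, probe set, number of windows and each array left out.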

Additional observations from a re-analysis of the deposited data

How the results depend on the processing

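No paired analysis was possible because each strain had 1 array and no test was made. Of 216 values compared under the alternatives, 170 stayed within the limit set for them, 44 moved by more and 2 turned sign by more. Another 3 turned sign within the limit, all of them the IRD3 difference from WT: -0.036 without marked spots, -0.0068 with loess and -0.065 with equal spread, in place of 0.034. The limit was the SD between the medians of the 4 arrays for levels (0.128) and for levels on an array left out (0.124). For differences it was the SD between the 3 median differences from WT (0.158), and for counts a factor of 1.5. The limit for differences is larger than the IRD2 and IRD3 differences themselves, -0.13 and 0.03. A value that stayed within it can therefore have lost the difference. Of the alternatives that kept 500 windows on the same grid, loess within each array shared the fewest of the 500, 241. It gave medians of -0.82 in IRD1, -1.06 in IRD2, -0.87 in IRD3 and -0.87 in WT, and left 8 windows within 50 kb of the left-out ends, in place of 27, and 14 in the lowest of 10 groups by input, in place of 126. The cause was not tested. Normexp background correction shared 351 windows. With arrays at equal spread the medians were -1.22 in IRD1 and -1.23 in IRD2, and the IRD1 difference from WT turned to -0.059 with the windows chosen anew. Relative to the mitochondrial median, a scale added after the data were seen, the difference was 0.21 in IRD2, a turned sign, and 0.57 in IRD3. The lowest 250 windows, all 250 of them among the 500, had medians of -1.18 in IRD1, -1.53 in IRD2, -1.32 in IRD3 and -1.41 in WT, and the lowest 1000 had -0.86, -1.15, -0.99 and -1.01 on the same arrays. Choosing on 3 arrays kept between 461 and 473 of the 500. Counts of windows at least 1 log2 unit from WT were 1, 1 and 2 in IRD1, IRD2 and IRD3. In IRD1 the count was 0 with normexp, loess, means over probes, probes of suffix f or m or the lowest 250, 2 with the lowest 1000, and 5 with windows moved by 750 bp. Leaving out each array in turn, it ran from 1 to 2. In IRD2 it was 0 with normexp, loess, moved windows or equal spread, and in IRD3 it was 0 with normexp, loess or means over probes and 1 with the value table or equal spread. At 0.5 log2 units, a limit added later, these counts were 51 in IRD1, 42 in IRD2 and 20 in IRD3. Within 50 kb of the centromeres and the mating-type region, a count added later, the number was 5 with normexp, loess or moved windows and 4 with means over probes, in place of 2. The spots of the 500 windows were dimmer in the precipitated channel than those of the other arm windows on every array. That signal is a term of the ratio that chose the windows, so this is a description only.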
